A study of Mus musculus with 12 samples.

Results

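The noninduced group comprised 6 of the 12 hearts of a mouse study of adult cardiac Parkin loss, chosen by their titles in the labels. These are floxed mice without Cre on the C57BL/6J background, adult, with a time point of 9 to 10 weeks after tamoxifen induction. The labels do not say whether the noninduced mice themselves received tamoxifen, and they give no sex, litter, batch or pooling. The characteristics name the tissue as whole heart, whereas the protocol states that ventricular apexes were frozen. Heart 1 to heart 6 below are noninduced replicates 1 to 6, and all 6 carried the floxed allele, so that no heart without it served as a reference. The other 6 hearts of the series entered no value given here. The question addressed was what an apex library of this group contains, and how far single hearts of 1 group differ.

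The adult ventricle is a tissue of large, non-dividing cardiomyocytes that contract at every beat and draw most of their ATP from fatty acids burnt in mitochondria. Its messenger RNA is therefore known to be dominated by sarcomere, myoglobin and respiratory chain genes, although most nuclei belong to endothelial cells, fibroblasts and other non-myocytes. Atrial muscle, at the other end of the heart, uses its own myosin light chains and secretes natriuretic peptide, and the outer surface of the heart is covered by mesothelium. In bulk samples, fewer cells of a type and less RNA per cell cannot be told apart.

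Each library held between 11610507 and 16884516 counts. On the CPM scale used below (counts relative to a fixed library total, after TMM scaling), 1 count equals 0.0543 to 0.0944. Spearman correlations between hearts over all rows were 0.970 to 0.988, and every pair differed by more than sampling noise (chi-square per degree of freedom 29.9 to 118). Messengers of the 13 protein-coding mitochondrial genes took 10.3% ± 4.06 (SD, n = 6) of counts, and the 100 most abundant genes of each library took 40.9% ± 2.96 (SD, n = 6). Defining cardiomyocyte genes were abundant in every library, and genes of other organs were near 0: of 20 such genes (among them Alb of liver and Ins1 of pancreas), 2 reached the minimum count, Myh4 and Ttr, and their summed level was 0.264 to 2.17 CPM.

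Esr1, the estrogen receptor gene on whose ligand-binding domain the MerCreMer transgene is built, separated hearts 1 and 3 from the rest. Esr1 (chromosome 10, 4611593 to 5005614, GRCm38) measured 554, 43.9, 953, 23.5, 53.8 and 64.3 CPM in hearts 1 to 6. Reads of the transgene can be counted on this gene, and whether hearts 1 and 3, labelled non-Cre, held any was not tested. Heart 3 stood apart in a further respect. Its reads on 4 genes of the Y chromosome (Uty, Kdm5d, Eif2s3y, Ddx3y) summed to 178, against 2 to 5 in each other heart, while its Xist, the RNA that silences an X chromosome in females, measured 76.4 CPM against 107 to 133. Without hearts 1 and 3, 11829 genes reached a mean of 1 FPKM (fragments scaled by transcript length and library total), the mitochondrial share was 9.18% and the top 100 share was 40.2%.

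A mean of at least 1 FPKM was reached by 11711 genes, and 10615 of them did so in every heart. At least 10 FPKM was reached by 5086 genes, at least 100 FPKM by 771 and at least 1000 FPKM by 133. Contractile, oxygen-storing and respiratory genes led. Myl2, the ventricular regulatory light chain, had a mean level of 16178 ± 2698 FPKM (SD, n = 6) and was the most abundant nuclear messenger supported by counts. Mb, which encodes the oxygen store myoglobin, followed at 14192 ± 1345 FPKM, and Cox6a2, a heart and muscle subunit of cytochrome c oxidase, at 11676 ± 3228 FPKM. Between hearts the ranges of these 3 genes overlapped: Myl2 ran from 12103 to 20250 FPKM, Mb from 12288 to 16186 and Cox6a2 from 8321 to 17583.

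Thin filament genes came next. Tnnt2 (cardiac troponin T) stood at 9162 ± 824 FPKM, Actc1 (cardiac actin) at 8632 ± 785, Tnni3 (troponin I) at 7743 ± 1468, Tpm1 (tropomyosin) at 6846 ± 1570 and Tnnc1 (troponin C) at 5583 ± 452. Fabp3, the fatty acid carrier of heart muscle, stood at 8210 ± 577 FPKM. Myh6, the fast adult myosin motor, reached 6296 ± 1380 FPKM per length, although by raw reads it held 339546 to 725168 counts per library. Myl3 (the essential ventricular light chain), Cox8b (a cytochrome c oxidase subunit) and Gapdh (a glycolytic enzyme) closed this group at 5227 ± 1176, 5895 ± 514 and 5758 ± 1538 FPKM. The order within this stretch is not resolved, because the ranges of neighbouring genes overlapped.

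**Figure D1:**
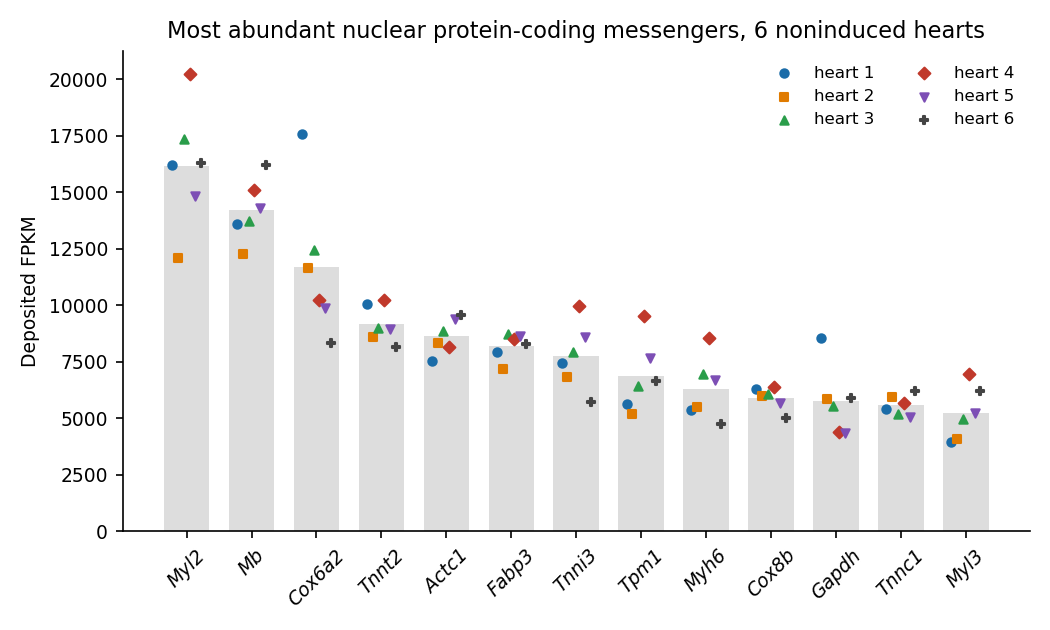
Deposited FPKM of the 13 most abundant nuclear protein-coding messengers with counts behind them (y axis, linear from 0); grey bars are means of 6 noninduced hearts and each symbol is 1 heart. Myl2 spans 12103 to 20250 FPKM, whereas Fabp3 spans 7174 to 8713.

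Several rows high in the FPKM table had few or no reads in the count table. Rn4.5s, a short noncoding RNA, had the highest nuclear mean (52557 ± 33503 FPKM) and 0 counts in every heart. Hba-a1, an alpha-globin gene, stood at 8876 ± 3352 FPKM with 0 counts, and Mir3082 at 4700 ± 1868 FPKM with 0 counts. Scarna17 rested on 6 to 15 counts per heart and Snord49a on 3 to 20. The 22 mitochondrial tRNA rows held 37.5% ± 5.39 (SD, n = 6) of the summed FPKM, with at most 945 counts in any row and heart. In the opposite direction, FPKM was listed at 0 for Clasp2 in heart 5 (898 counts), Cnot1 in heart 3 (1988 counts) and Xirp2 in hearts 1, 3 and 4 (4736, 7839 and 5542 counts). Rnu12, another short noncoding RNA, did have reads, with 12568 ± 4466 FPKM on 1146 to 3472 counts per heart. The FPKM ranks of Rn4.5s, Hba-a1 and Mir3082 are thus not backed by counts, and those 5 zeros were set aside.

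Gene groups lay on separate levels. Median FPKM over members was 1269 for 24 ventricular sarcomere genes, 594 for 40 nuclear genes of oxidative phosphorylation, 336 for 20 of glucose uptake and glycolysis, 260 for 20 of the tricarboxylic acid cycle and 112 for 30 of fatty acid oxidation. Housekeeping machines differed from each other, with 303 FPKM for 24 cytosolic ribosomal proteins and 57.1 for 20 proteasome subunits. Genes of non-myocytes were lower: 34.5 FPKM for 30 fibroblast and matrix genes, 31.8 for 22 endothelial genes, 23.0 for 18 smooth muscle and pericyte genes and 5.57 for 23 macrophage genes. Mesothelium (0.750), lymphocytes and granulocytes (0.305) and other organs (0.0198) closed the order. Within each list single genes ranged widely, so these medians order lists and not all of their members.

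Named members show what each level means. Atp2a2, the calcium pump of the sarcoplasmic reticulum, stood at 2097 ± 399 FPKM, Hrc, a calcium-binding protein of the same store, at 626 ± 95.9, and Pln, the inhibitor of the pump, at 539 ± 95.8, although 64.7% of Pln exon bases are shared with overlapping genes. Mdh2, an enzyme of the tricarboxylic acid cycle, stood at 1479 ± 153 FPKM. Aldoa (a glycolytic enzyme) stood at 4015 ± 544 FPKM, Hadha (a beta-oxidation enzyme) at 377 ± 61.4 and Lpl, the lipase that frees fatty acids from lipoproteins, at 807 ± 94.2. Among non-myocyte genes, Gsn (gelsolin, also made by muscle) reached 638 ± 164 FPKM, Fabp4 of capillary endothelium 550.0 ± 116, Sparc of matrix-forming cells 265 ± 72.8 and the macrophage complement gene C1qc 63.9 ± 8.96.

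Spread between hearts was then measured for 13932 genes that reached the minimum count in at least 1 heart. The median coefficient of variation (CV, SD divided by mean CPM) was 17.9%, with quartiles of 11.9% and 28.4%. A goodness-of-fit test in edgeR against counting error alone called 10042 genes, or 72.1% of those tested, at an adjusted p under 0.05. The same test against the negative binomial dispersion expected at each abundance called 548 genes, or 3.93%, and 1221 had an unadjusted p under 0.05. Without hearts 1 and 3 the first test called 8728 genes and the second 425, with a median CV of 16.8%. A dispersion outlier call in DESeq2 took 148 genes, all of them among the 548. Below, a gene is called variable when it passed the second test, and 3.93% is the share against which counts of variable members are set. Counts of members that were highest or lowest in a given heart have no share over all genes beside them. Such counts describe a list and do not by themselves set it apart from other genes.

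Depth set how small a spread could be seen. Genes under 1 CPM had a median CV of 47.6%, of which counting error alone gives 34.3%, and 39.7% of them exceeded counting error. Genes of 10 to 100 CPM had a median CV of 13.7% against a counting error of 5.04%. At 1000 CPM and over, counting error was 0.605%, all 109 genes exceeded it and 13 (11.9%) were variable beyond the trend, the highest share of any level. Most of these variable genes were mitochondrial messengers (mt-Nd2, mt-Nd4, mt-Nd4l, mt-Nd5, mt-Nd6, mt-Co3, mt-Atp8 and mt-Cytb), and Myh7 and Acta1 were among the others. A CV above 50% was found for 1147 genes (8.23%), and above 100% for 188.

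**Figure D2:**
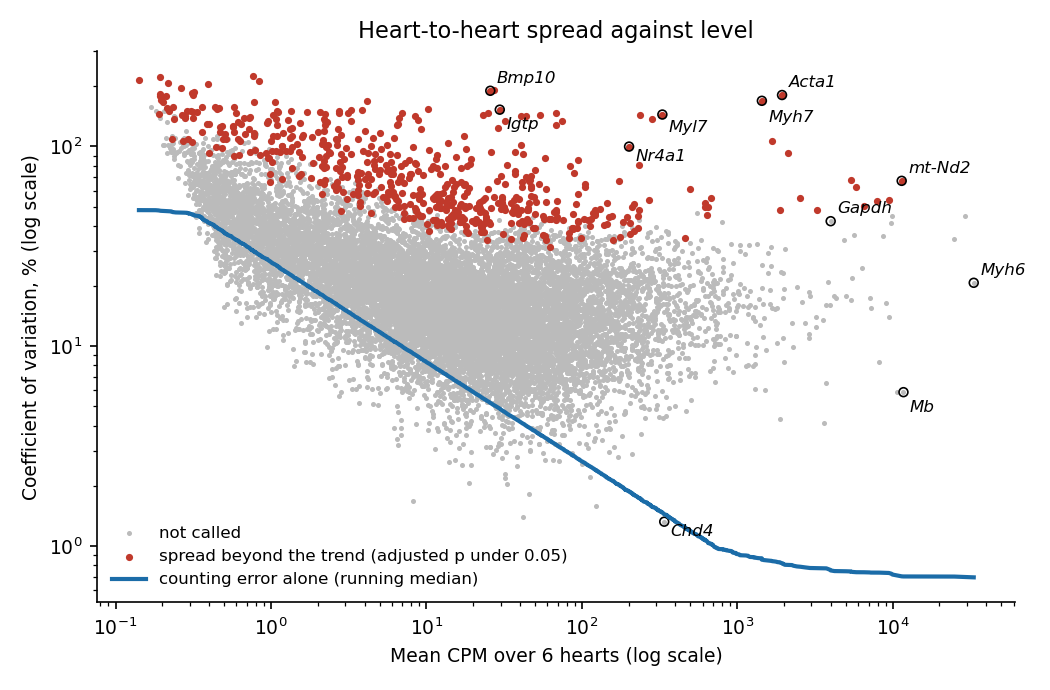
Coefficient of variation over 6 noninduced hearts (y axis, %, log scale) against mean CPM (x axis, log scale) for 13932 genes; red points are the 548 variable genes and the blue line is the running median of counting error alone. Mb and Chd4 lie low for their level, and Myh7, Acta1, Bmp10 and Myl7 lie above 100%.

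The 548 variable genes were spread unevenly over the hearts. The heart farthest from the median was heart 6 for 245 of them (44.7%), with 140 high and 105 low there. Heart 5 was farthest for 117 (21.4%), and 110 of these were high. Hearts 4 and 1 accounted for 65 and 64, and hearts 2 and 3 for 30 and 27. Without heart 6, 375 genes were variable, and 319 of them belonged to the 548. Of the 20 genes of highest CV at 5 CPM or more, 8 were highest in heart 6, 8 in heart 5, 2 in heart 4, 1 in heart 1 and 1 in heart 3.

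At the other extreme, some genes did not spread beyond counting error. Chd4, a chromatin remodelling ATPase, measured 343, 334, 339.5, 337, 334 and 345 CPM in hearts 1 to 6, a CV of 1.32% where counting error alone gives 1.43% (adjusted p = 0.524 against counting error, edgeR goodness of fit). Txlna, Trim35 and Afap1 had CVs of 1.40%, 1.58% and 1.81%. Fbf1, Tbc1d20, Rrp1, Slc11a2, 2610301G19Rik and Baz1b completed the 10 lowest CVs at a mean of 20 CPM or more, up to 2.58%. All 10 were within counting error, which the choice of the lowest CVs favours. Over all genes 72.1% exceeded counting error, and these 10 are not shown to be steadier than the other genes that did not. A low CV was not limited to moderate levels: Actc1 had 5.87%, Mb 5.88% and Fabp3 6.55%, all beyond counting error at their depth. Gapdh, often taken as a reference, had a CV of 42.2% and measured 7114, 4358, 3783, 2576, 2554 and 3556 CPM. Its highest heart was 2.79 times its lowest, and it did not pass the trend test (adjusted p = 0.241, edgeR goodness of fit).

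Housekeeping and contractile lists held no variable gene, a count near what a share of 3.93% gives in lists of this size. Of 24 sarcomere genes 0 were variable (median CV 16.2%, against 17.9% over all genes), likewise 0 of 40 for nuclear oxidative phosphorylation (15.8%), 0 of 20 for the tricarboxylic acid cycle (15.1%), 0 of 24 for ribosomal proteins (13.1%), 0 of 20 for the proteasome (14.9%) and 0 of 20 for heat shock proteins (19.5%). Leaving out heart 1, heart 2, hearts 1 and 3, or hearts 2 and 5 turned 1 sarcomere gene variable. Single members still spread, the widest in the sarcomere list being Xirp2, an actin-binding repeat protein, at a CV of 46.4%. Among 22 endothelial genes only Plvap, a protein of fenestrated and endocardial endothelium, was variable, at 23.2, 32.2, 14.0, 16.4, 41.6 and 15.4 CPM in hearts 1 to 6. The endothelial list score, the mean of log2 CPM over members centred on the 6 hearts, spanned only 0.09. The sarcomere score spanned 0.15. Plvap was no longer called without heart 5 or without hearts 2 and 5.

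**Figure D3:**
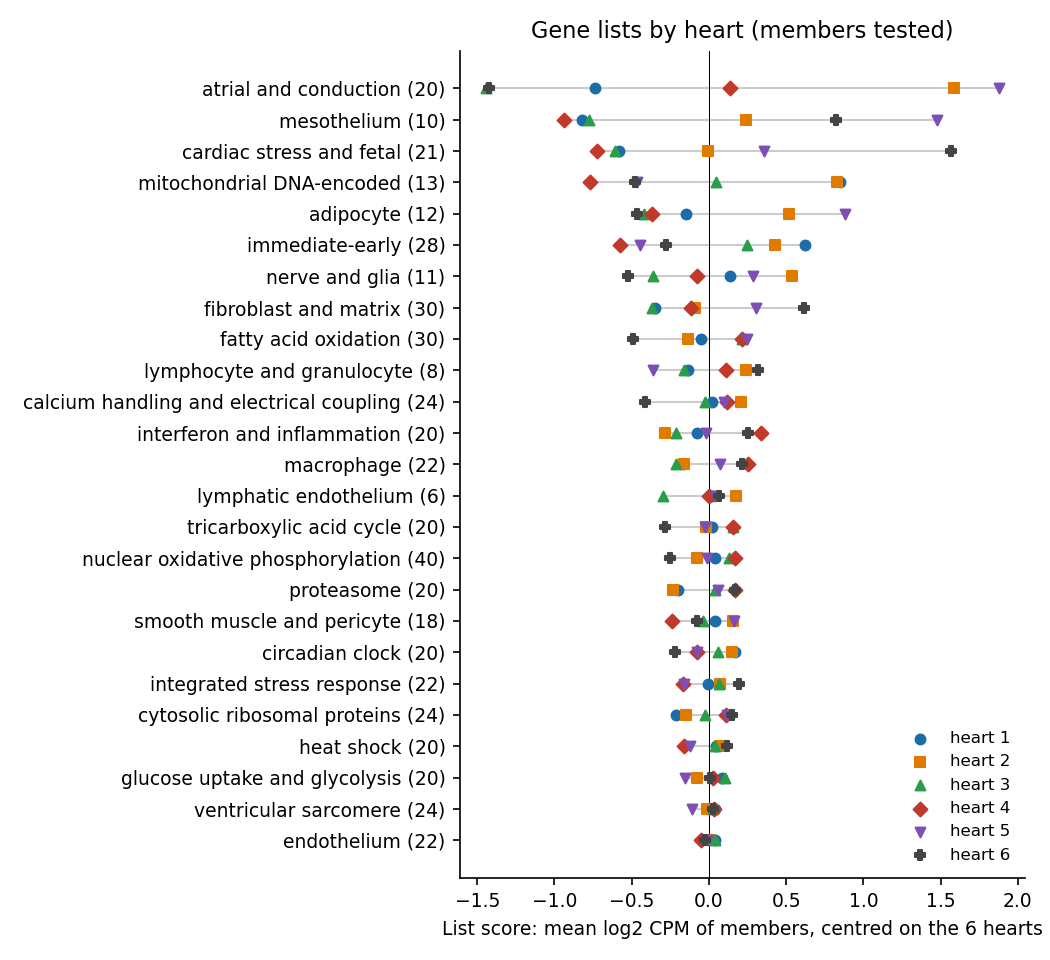
Score of each gene list in each noninduced heart (x axis, mean log2 CPM of members centred on the 6 hearts; number of members tested in brackets), ordered by range. Atrial, mesothelial and stress lists span over 2 log2 units, whereas sarcomere and endothelium span 0.15 and 0.09.

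Mitochondrial messengers varied far more than the nuclear genes of the same complexes. The mitochondrial genome encodes 13 respiratory chain subunits, transcribed as long precursors from both strands. All 13 exceeded counting error and 9 were variable beyond the trend, with a median CV of 49.5%. Their share of counts was 15.2%, 15.4%, 10.0%, 6.25%, 7.64% and 7.40% in hearts 1 to 6. Hearts 1 and 2 were thus high and heart 4 low. The CV was 67.8% for mt-Nd6 and 67.2% for mt-Nd2, both of complex I. mt-Nd6, read from the light strand (mitochondrial positions 13552 to 14070), measured 11537, 8045, 4445, 2695, 3099.8 and 2484 CPM. mt-Nd2 measured 24079, 17302, 9723, 4365, 6475 and 6617 CPM, and mt-Co1, the catalytic subunit of cytochrome c oxidase, 40003, 48589, 29819, 19965, 18415 and 17209.6 CPM. The calls depended on which hearts were in: they numbered 3 of 13 without heart 2, without heart 4, or without hearts 2 and 5 together, and 11 without heart 6. Hearts 1 and 2 also had the fewest total counts and the lowest TMM factors (0.890 and 0.912, against 0.982 to 1.09). The part of depth and scaling in this pattern was not tested.

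Per length, mt-Atp8 (ATP synthase) had 100767 ± 46742 FPKM, mt-Nd4l (complex I) 24457 ± 11397, mt-Atp6 (ATP synthase) 20464 ± 7550.0 and mt-Co1 20190 ± 7380.1. These exceed Myl2 in mean FPKM. The first 2 overlap a neighbouring mitochondrial gene, so their FPKM depends on how shared reads were assigned.

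Immediate-early genes, which neurons and muscle switch on within minutes of a stimulus, were high in the same hearts. Of 28 tested, 10 (35.7%) were variable, all of them with their highest level in heart 1, 2 or 3: Fos, Fosb, Fosl2, Nr4a1, Nr4a2, Nr4a3, Atf3, Btg2, Dusp1 and Zfp36. Nr4a1, an orphan nuclear receptor (chromosome 15, 101254269 to 101274795), measured 526, 320.2, 247, 48.3, 34.9 and 31.1 CPM in hearts 1 to 6 (CV 99.8%, adjusted p = 2.7e-31, edgeR goodness of fit). Its relative Nr4a3 measured 78.1, 79.4, 38.7, 16.8, 4.05 and 4.56 CPM, and Nr4a2 11.3, 3.68, 5.83, 1.12, 2.23 and 1.03. For these receptors hearts 1, 2 and 3 each lay above hearts 4, 5 and 6. The AP-1 genes Fos and Fosb and the stress factor Atf3 followed. Fos measured 9.25, 5.95, 12.8, 2.07, 2.41 and 3.15 CPM, Fosb 7.14, 14.6, 8.46, 2.01, 1.53 and 1.03 and Atf3 23.8, 27.5, 14.7, 7.10, 4.17 and 2.28. Dusp1, a phosphatase that ends MAP kinase signals, measured 199, 185, 100.2, 69.9, 93.6 and 77.6 CPM. Not every member moved: Ier3 had a CV of 13.7% and its highest level in heart 5. Of the 28 genes tested, 5 had their highest level in heart 6 and 2 in heart 5. Without hearts 1 and 3, 6 of 28 were variable.

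Scores of the mitochondrial and immediate-early lists ran in parallel over the 6 hearts. The mitochondrial score was 0.85, 0.83, 0.04, -0.77, -0.46 and -0.48 and the immediate-early score 0.62, 0.43, 0.25, -0.58, -0.44 and -0.28. Pearson's r was 0.964 (exact permutation p = 0.00278, adjusted over 8 relations 0.0222) over 720 pairings. Spearman's rho was 0.943 (exact permutation p = 0.0167, adjusted 0.133). Without hearts 1 and 2, the farthest from the median mitochondrial score, r was 0.969. Under library totals, and on log2(FPKM + 0.1), r was 0.94 and the adjusted p 0.0889, past the threshold in neither. Hearts 1 to 3 and hearts 4 to 6 lie apart in the immediate-early score, and neither set is large enough for an r of its own. The other 7 relations did not pass (adjusted exact permutation p for r from 0.215 to 0.95).

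**Figure D4:**
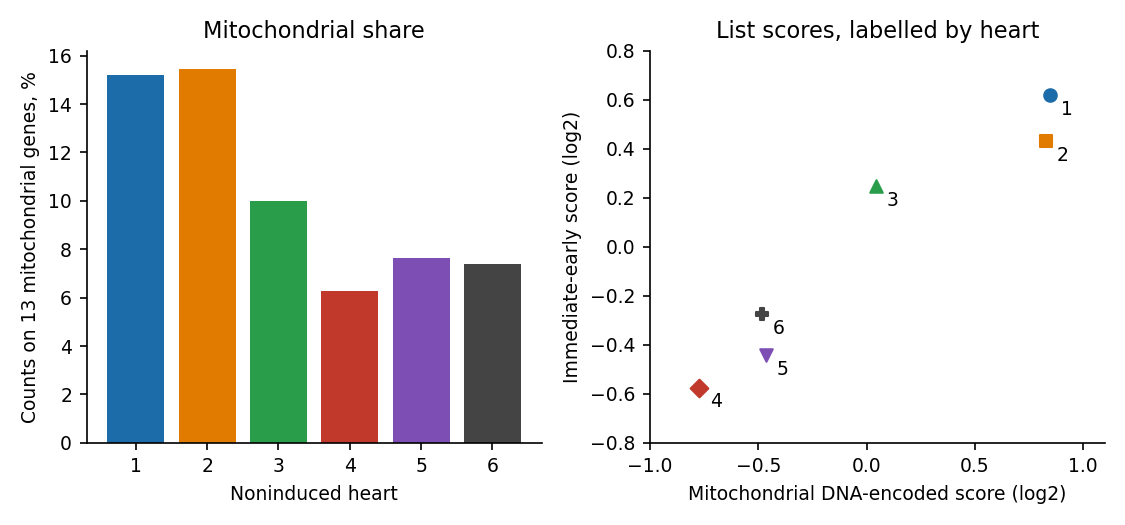
Left, share of counts on the 13 mitochondrial protein-coding genes (y axis, %, from 0) in each noninduced heart; right, immediate-early score against mitochondrial score (both log2), each point 1 heart labelled by its number. Hearts 1 and 2 are high in both, heart 4 is lowest in both, and heart 3 lies between.

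Atrial genes had the widest range of list scores. Of 20 atrial and conduction genes 15 (75%) were variable, with a median CV of 81.8%, and 12 had their highest level in heart 5. The score was -0.74, 1.58, -1.44, 0.14, 1.88 and -1.42 in hearts 1 to 6, a range of 3.32. Myl7, the atrial regulatory light chain (chromosome 11, 5896637 to 5898782), measured 16.3, 757, 0.833, 107, 1095 and 1.36 CPM (adjusted p = 1.6e-119, edgeR goodness of fit). Its partner Myl4, the atrial essential light chain, measured 11.63, 539.7, 2.05, 83.0, 786 and 2.82 CPM. Hearts 2 and 5 were high, heart 4 lay between, and hearts 3 and 6 were close to 0. The share of Myl7 in the sum of Myl2 and Myl7 by CPM was 0.200%, 11.3%, 0.0105%, 1.23%, 15.2% and 0.0202%.

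Other atrial genes had the same order of hearts at the top. Sln (sarcolipin, the atrial inhibitor of the calcium pump) measured 1.41, 97.7, 0.384, 14.6, 129 and 0.163 CPM, and Mybphl (an atrial myosin-binding protein) 1.94, 132, 0.897, 16.6, 172 and 0.435. Bmp10, a growth factor of the right atrium, measured 0.0881, 27.9, 0.128, 2.78, 123 and 0.598 CPM, so that heart 5 was 4.42 times heart 2. A further 3 genes of the 20 highest CVs had their top levels in hearts 5 and 2 as well: Cilp2 measured 0.352, 17.7, 0.256, 3.25, 39.0 and 0.489 CPM, Tmem163 0.352, 19.5, 0.384, 2.60, 27.6 and 0.109 and Gm1078 8.99, 190.5, 9.55, 21.5, 217 and 0.923. The conduction gene Hcn4, a pacemaker channel, was different, with 26.6, 15.1, 17.2, 15.0, 12.3 and 2.61 CPM and its lowest level in heart 6. Atrial calls numbered 12 of 20 without heart 6 and 11 of 19 without hearts 2 and 5.

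Some markers of tissue outside ventricular muscle were high in heart 5 too, while the mesothelial score put heart 6 and not heart 2 next. Of 10 mesothelial genes 7 were variable, with 8 of 10 highest in heart 5 and scores of -0.82, 0.24, -0.78, -0.94, 1.47 and 0.82. Upk3b, a uroplakin of the mesothelial surface, measured 1.498, 8.50, 3.01, 0.887, 18.9 and 4.29 CPM, and Msln, mesothelin, 1.15, 2.83, 1.09, 0.414, 7.28 and 4.29. Krt18, a keratin, had its peak in heart 6, at 0.440, 0.944, 0.833, 0.828, 3.35 and 13.1 CPM. Of 12 adipocyte genes tested 4 were variable, among them Cfd (adipsin) at 0.440, 1.98, 0.192, 0.177, 5.17 and 0.0543 CPM and Cidec (a lipid droplet protein) at 0.0881, 0.756, 0.0641, 0, 1.70 and 0. Of the 12, however, 5 were highest in heart 5, 4 in heart 2, 2 in heart 6 and 1 in heart 4. The summed level of the 12 was 3654 CPM in heart 5, within a range of 3002 (heart 6) to 4189 (heart 1). Adipoq, Lep, Retn and Ucp1 stayed under the minimum count. A gene could enter the test through 1 heart, and only 10 adipocyte genes were tested without heart 5. The call of a low gene that is high in heart 5 is therefore no separate support for that pattern. Smooth muscle genes were variable in 5 of 18 cases, such as Cnn1 (calponin) at 4.14, 5.95, 3.14, 1.71, 12.2 and 2.88 CPM. Of the 18, however, 6 were highest and 6 were lowest in heart 5. The smooth muscle score was 0.156 in heart 2 and 0.160 in heart 5. The part of the mesothelial, adipocyte and smooth muscle genes in the atrial pattern was not tested. Mesothelial calls fell to 4 without heart 3, heart 5, or hearts 1 and 3, and to 3 without hearts 2 and 5. Smooth muscle calls fell to 1 without heart 4 or heart 5 and to 0 without hearts 2 and 5, and adipocyte calls to 1 of 10 without heart 5 and 0 of 9 without hearts 2 and 5.

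Heart 6 carried the genes of the cardiac stress and fetal programme. This set includes genes that the ventricle uses before birth and again under load. Of 21 tested genes 17 (81%) were variable, 18 had their highest level in heart 6, and the scores were -0.58, -0.01, -0.61, -0.73, 0.36 and 1.57. Myh7, the slow fetal myosin motor (chromosome 14, 54970684 to 54994626), measured 344, 315, 490.1, 414, 673 and 6405 CPM in hearts 1 to 6 (adjusted p = 7.2e-34, edgeR goodness of fit). Acta1, skeletal actin (chromosome 8, 123891769 to 123894751), measured 288, 502, 592, 232, 949 and 9086 CPM. Heart 6 was 9.52 times the next heart for Myh7 and 9.57 times for Acta1. Ankrd1, a stretch-sensing ankyrin repeat protein, measured 1366, 1130.0, 1282, 1168, 1678 and 6134 CPM. Without heart 6, 7 of 20 genes of the list were variable and the median CV fell from 86.0% to 29.8%.

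Myosin composition differed between the tables, most of all in hearts 1 to 5. By CPM, Myh7 made up 1.06%, 0.972%, 1.29%, 0.955%, 2.03% and 22.4% of the sum of Myh6 and Myh7. By deposited FPKM the same share was 11.8%, 11.8%, 12.2%, 12.4%, 13.5% and 30.4%. Both tables put heart 6 highest, while the other 5 hearts held 0.955% to 2.03% by CPM and 11.8% to 13.5% by FPKM. The motors are near-identical neighbours, how reads matching both were treated is not given in the sources used here, and antisense genes overlap 13.3% of Myh7 exon bases, so the share itself is uncertain. Acta1 as a share of Actc1 plus Acta1 was 2.69%, 4.27%, 5.04%, 2.37%, 8.13% and 45.5% by CPM, and 2.65% to 44.1% by FPKM.

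Natriuretic peptides split the 2 patterns. Nppa, made by atrial muscle and by stressed ventricle (chromosome 4, 148000722 to 148002079), measured 119, 1768, 112, 406, 3569 and 4014 CPM, high in hearts 6, 5 and 2. Heart 6, with the highest Nppa, had 1.36 CPM of Myl7. Nppb, its ventricular relative, measured 163, 199, 137, 102, 179 and 609 CPM, with heart 6 alone 3.05 times the next. An antisense gene overlaps 61.5% of Nppa exon bases, so those reads cannot be told apart.

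Matrix genes of activated fibroblasts were high in heart 6 as well. Of 30 fibroblast and matrix genes 7 were variable, 18 had their highest level in heart 6 and 11 in heart 5. Among the 548 variable genes of all kinds, 140 were farthest from the median and high in heart 6, and 110 in heart 5. Postn (periostin) measured 17.97, 27.3, 13.8, 23.2, 55.8 and 268 CPM, Cilp, a cartilage-layer matrix protein, 13.1, 21.3, 7.75, 15.8, 35.1 and 170.2, and Col8a1, a short-chain collagen, 23.7, 23.1, 22.9, 18.7, 30.7 and 125. Ltbp2, a latent TGF-beta-binding family member, measured 6.70, 11.3, 5.38, 4.97, 22.5 and 99.1 CPM. Col3a1, fibrillar collagen III, was called too, at 95.7, 138, 131, 263, 284 and 380.0 CPM, with hearts 4 to 6 all above hearts 1 to 3. Gdf15, a stress-induced cytokine, measured 3.96, 3.21, 3.27, 1.30, 2.23 and 27.8 CPM, and Psca, a surface antigen, 5.20, 6.42, 4.87, 3.07, 10.8 and 134, where heart 6 was 12.4 times the next. Fibroblast calls numbered 4 without heart 3 or without hearts 1 and 3. Of 22 macrophage genes 10 were highest in heart 6, with a median CV of 23.0% for the list, and 2 were variable. Its most abundant members, C1qc, C1qb and Lyz2, had CVs of 15.1%, 13.6% and 14.6% and were not variable.

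Fatty acid oxidation genes were mostly lowest in heart 6, within the trend, as were other oxidative genes. In heart 6, 25 of 40 nuclear genes of oxidative phosphorylation and 14 of 20 of the tricarboxylic acid cycle had their lowest level. Sdha and Sdhb are in both of these lists. The share of all genes lowest in heart 6 is not given here. Of 30 fatty acid oxidation genes 21 had their lowest level in heart 6. Their list score was -0.05, -0.13, 0.21, 0.21, 0.25 and -0.49, yet only Ucp3, a mitochondrial uncoupling protein, was variable. Ucp3 measured 46.0, 32.9, 65.8, 54.7, 68.7 and 20.9 CPM and was not called without hearts 2 and 5. Pdk4, the kinase that shuts glucose carbon out of mitochondria, measured 139, 118, 209, 198, 216 and 108 CPM. Of 24 calcium-handling genes 12 were lowest in heart 6 and 7 in heart 5. Atp2a2, at 8523, 9096, 9561, 11081, 9333 and 6555 CPM, was lowest in heart 6. The 1 variable member of that list was Sln, described above. Of 20 genes of glucose use 6 were lowest and 5 highest in heart 6. Pfkp, the platelet phosphofructokinase, was the 1 variable gene among them, at 39.6, 29.9, 49.98, 53.9, 48.5 and 129 CPM with heart 6 highest, and it was not called without heart 6. A count of 1 in lists of 20 to 30 genes is near the 3.93% of all genes.

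Heart 4 was highest for a set of interferon-inducible genes, several of them named for their spread or after their values were seen. The interferon list as a whole did not single out heart 4, with 8 of 20 tested members highest there and 8 in heart 6. The palindromic GAS element serves interferon-gamma signals, and the interferon-stimulated response element (ISRE) serves type I signals. The GTPases Igtp and Irgm2 are overlapping neighbours, sharing 8.01% of Igtp and 4.39% of Irgm2 exon bases, and were both highest in heart 4. Their promoters, and that of Gbp3, are shown because these genes varied together and a GAS or ISRE stands in each stretch printed. The stretches run from 250 bases before to 50 after the RefSeq start (GRCm38.p6, plus strand), with capitals marking GAS (TTCNNNGAA) and ISRE (GAAANNGAA), searched on both strands. Igtp is chr11:58199306-58199605, Irgm2 is chr11:58214727-58215026 and Gbp3, a guanylate-binding protein, is chr3:142559794-142560093.
Igtp: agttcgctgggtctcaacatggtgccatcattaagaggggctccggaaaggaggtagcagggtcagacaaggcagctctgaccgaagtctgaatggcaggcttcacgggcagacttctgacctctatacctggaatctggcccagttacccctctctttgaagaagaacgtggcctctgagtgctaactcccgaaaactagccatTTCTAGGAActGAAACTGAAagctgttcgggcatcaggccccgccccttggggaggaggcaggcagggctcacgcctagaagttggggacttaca
Irgm2: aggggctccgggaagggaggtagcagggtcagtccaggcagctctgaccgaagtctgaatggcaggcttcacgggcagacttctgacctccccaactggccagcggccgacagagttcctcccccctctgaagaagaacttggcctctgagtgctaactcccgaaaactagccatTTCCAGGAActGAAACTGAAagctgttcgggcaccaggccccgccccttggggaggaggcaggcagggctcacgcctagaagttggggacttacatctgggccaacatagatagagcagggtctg
Gbp3: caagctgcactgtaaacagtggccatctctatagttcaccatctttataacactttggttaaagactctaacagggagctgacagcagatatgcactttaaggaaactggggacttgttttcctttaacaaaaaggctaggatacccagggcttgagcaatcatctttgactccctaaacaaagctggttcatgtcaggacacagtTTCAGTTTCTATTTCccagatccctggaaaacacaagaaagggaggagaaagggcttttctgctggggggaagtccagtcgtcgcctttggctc

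In Igtp the GAS starts at base 206 of the stretch and the ISRE at base 217, and in Irgm2 at bases 176 and 187, so both pairs start 11 bases apart. The Igtp and Irgm2 stretches are nearly alike around these matches, so the shared spacing is not an independent observation in each gene. The stretch of Gbp3 holds ISRE matches at bases 207 and 213 on the minus strand, which overlap, and no GAS. A further RefSeq start of Gbp3, with the stretch chr3:142560106-142560405, has neither match and is not printed. A GAS match was found in 8.3% of 32851 RefSeq promoters of this length and an ISRE match in 8.56%. A match is a string of letters and was not tested as a binding site. Promoters of other named genes were searched for elements chosen for their own groups and are not printed. No such match was found for Nr4a1, Fos, Myl4, Dbp or Arntl, whereas Myl7, Ankrd1 and a start of Myh7 had a match.

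Igtp measured 18.5, 10.4, 8.39, 122, 11.57 and 7.33 CPM in hearts 1 to 6 (adjusted p = 9.4e-36, edgeR goodness of fit), and Irgm2 18.5, 12.6, 11.3, 120.1, 15.8 and 14.5. Heart 4 was 6.58 and 6.49 times the next heart. F830016B08Rik, an interferon-inducible GTPase of another cluster, measured 15.2, 9.73, 5.83, 90.6, 10.5 and 6.41 CPM. Gbp3 measured 5.81, 5.10, 6.41, 18.6, 8.75 and 7.99 CPM. The class II antigen-presenting genes H2-Aa and H2-Ab1 followed at 27.7, 32.8, 17.6, 91.3, 32.5 and 21.3 CPM and 37.7, 37.1, 23.8, 115, 44.2 and 27.0 CPM. In all of these heart 4 was highest, at 2.12 to 6.58 times the next heart.

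Few members of the interferon list, which holds Gbp3 among the genes above, followed. Of 20 tested genes 2 (10%) were variable, Gbp3 among them, 8 had their highest level in heart 4 and 8 in heart 6. The abundant members Bst2, Irf9 and Ifi27l2a were not variable (CV 27.8%, 28.2% and 45.6%), and Ifi27l2a was highest in heart 6. Without heart 4, 0 of 19 were variable. Lymphocyte markers were low throughout, with 12 of 20 under the minimum count or without a row and a summed level of 9.75 to 15.7 CPM, and 0 of the 8 tested were variable. Of 22 macrophage genes the 2 variable ones were H2-Aa and H2-Ab1, and neither was called without heart 4.

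**Figure D5:**
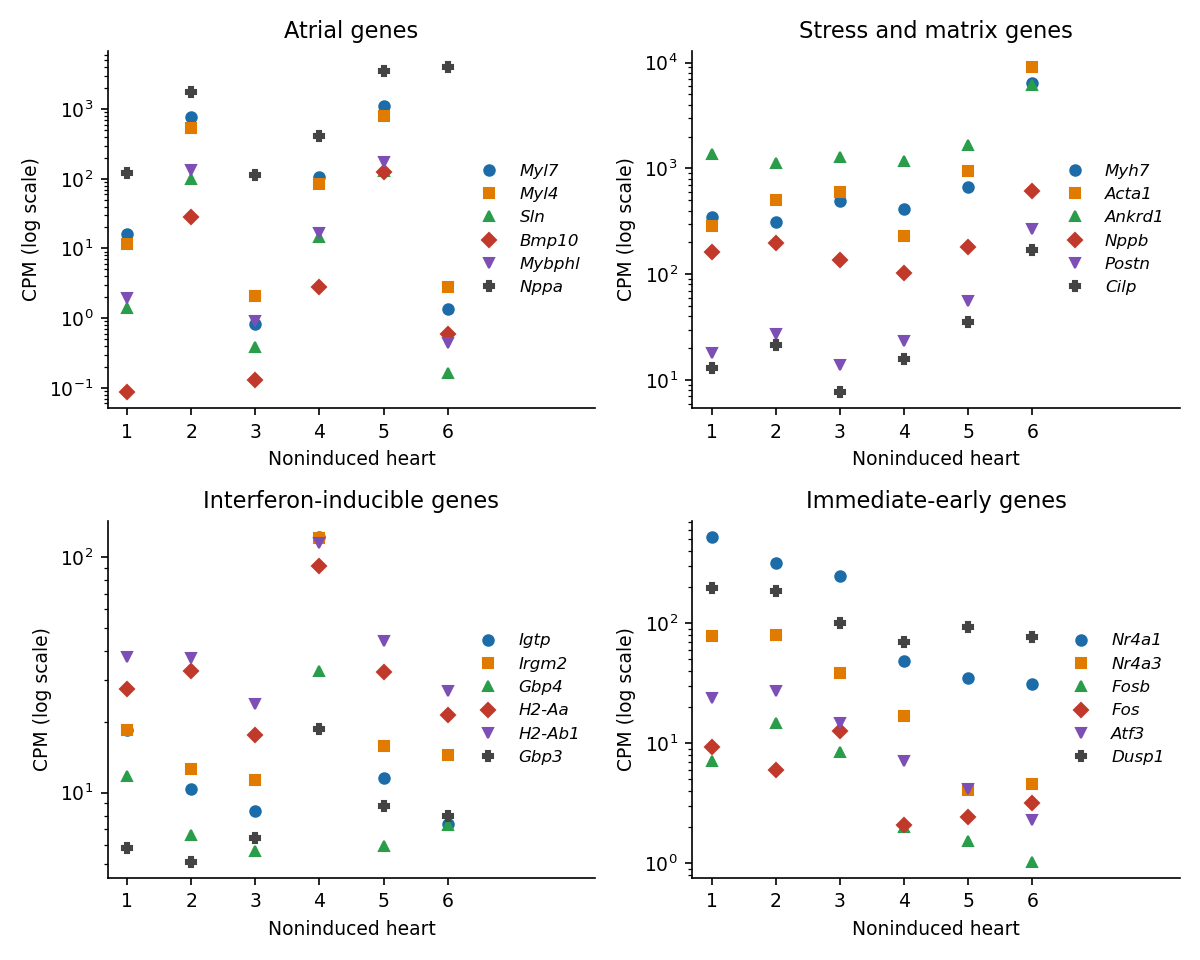
CPM (y axes, log scale) of named genes in each noninduced heart (x axes), 1 panel per gene group and 1 symbol per gene. Atrial genes peak in hearts 2 and 5, stress and matrix genes in heart 6, interferon-inducible genes in heart 4 and immediate-early genes in hearts 1 to 3; Nppa is high in hearts 2, 5 and 6.

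Clock genes, which oscillate over the day, were mostly steady. Of 20 genes 2 were variable (median CV 16.9%). Per1, which is also an acute response gene, measured 539, 310.2, 279, 147, 208 and 148 CPM, highest in heart 1, and Gm129 (Ciart), a repressor of the clock, measured 61.1, 73.8, 48.1, 27.3, 36.8 and 26.4 CPM. Dbp, an output gene of the clock, measured 81.8, 84.8, 93.6, 106, 129.7 and 91.5 CPM, and Arntl, the core activator that peaks in the opposite phase, 1.498, 1.70, 2.24, 1.01, 0.587 and 2.39 CPM, at 10 to 44 counts per heart. Neither was variable. Across the 6 hearts Arntl and Dbp had r = -0.804 (exact permutation p = 0.0542, adjusted 0.215) and rho = -0.486 (exact permutation p = 0.356, adjusted 0.796), and r was 0.965 without hearts 4 and 5, so the relation rests on those hearts. Nr1d1, the most abundant clock gene at 143 FPKM, had a CV of 17.5%. Clock calls fell to 1 without any of hearts 1, 2 and 4, without hearts 1 and 3 and without hearts 2 and 5.

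Of mitochondrial quality control, the pathway the study was about, 3 genes are given by name. Pink1, the kinase that marks damaged mitochondria, stood at 307 ± 51.3 FPKM and measured 859, 759, 744, 770.0, 618 and 443 CPM, lowest in heart 6. Mfn2, a fusion protein of the outer membrane, stood at 271 ± 13.3 FPKM with a CV of 8.09%, and ran from 1031 to 1276 CPM. Bnip3, a mitophagy receptor, stood at 29.8 ± 7.36 FPKM and measured 37.9, 45.3, 47.5, 42.7, 49.2 and 63.3 CPM, with an antisense gene over 22.3% of its exon bases. None of these 3 was variable beyond the trend (adjusted p = 1, 1 and 1, edgeR goodness of fit).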

How the data were processed

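Polyadenylated RNA of 6 noninduced mouse hearts was sequenced as single-end libraries without strand, per the labels' protocols. The deposited counts are whole numbers of reads for each gene symbol (23457 rows, 5424 without a count in these hearts), and the deposited FPKM table has 23369 rows. Bowtie2, TopHat2 2.0.10, HTSeq and Cufflinks 2.1 with build mm10 are named in the submitters' processing notes. Which annotation and counting mode the authors chose, and how multi-mapping reads were handled, is not given in the sources used here. Columns carry a wild-type abbreviation and were matched to the noninduced titles by number, and 37 Ensembl identifiers, all mitochondrial, were matched to symbols.

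Counts were scaled by TMM in edgeR 4.0.16 (R 4.3.3). The filterByExpr minimum had to be met in at least 1 heart. Each gene was fitted with an intercept, and the upper tail of edgeR's goodness-of-fit deviance was tested with a dispersion of 0 and with the trended dispersion, adjusted by Benjamini-Hochberg over 13932 genes with a threshold of 0.05. These p-values measure the spread between the deposited hearts, which holds biological and technical parts that the design does not separate. List scores use log2 CPM with a prior count of 2, and some genes are in more than 1 list. Scores were related by two-sided exact permutation tests over 720 pairings. The code was tested on simulated data. Alternatives were DESeq2 1.42.0 size factors and dispersion outliers, library totals, other filters, FPKM, and hearts left out. An average of 1 count being worth 0.0698 CPM limits what can be said of low genes.

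The set of hearts, the gene lists and the genes named were chosen with earlier results of these data known. Genes were named if they had the highest FPKM, the highest CV among variable genes with a mean CPM of at least 5, the lowest CV with at least 20, or the top FPKM or CV in a list. Some others were fixed by name. Atf3, Fos, Fosb, Msln, Cfd, Cnn1, Hcn4, Col3a1, Pdk4, Irgm2, Iigp1, Gbp4 and Rpph1 were named after their values were seen. Positions are 1-based (GENCODE, GRCm38), and promoters are from RefSeq (GRCm38.p6). No other sample columns were used. A few genes are not reported here, although the list counts include them.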

Additional observations from a re-analysis of the deposited data

Results flagged for a closer look

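Within the 6 hearts, 100 values (measures of the libraries, list scores and named genes) were checked for a single heart far from the rest, by the gap to its nearest neighbour as a share of the whole range (Dixon's 95% critical value). By chance about 1 in 20 such values stands out, and 24 did. They fell unevenly: 10 in heart 6, 8 in heart 4, 3 in heart 3, 2 in heart 5 and 1 in heart 2. The named genes had been chosen partly for their spread, so this share is higher than that of an unselected set.

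Heart 6 stood alone for cardiomyocyte stress genes, at 6405 CPM for Myh7, 9086 for Acta1, 6134 for Ankrd1 and 608.6 for Nppb. The same held for matrix genes of fibroblasts, at 268 CPM for Postn, 170.2 for Cilp, 99.1 for Ltbp2 and 125 for Col8a1. Gdf15 at 27.8 CPM and Psca at 133.6 CPM completed this set.

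Heart 4 stood alone for GTPases and other interferon-inducible genes: 121.7 CPM for Igtp, 120.1 for Irgm2, 42.6 for Iigp1, 90.6 for F830016B08Rik, 32.8 for Gbp4 and 18.6 for Gbp3. The class II genes H2-Aa at 91.3 and H2-Ab1 at 114.6 CPM stood apart in this heart too.

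Heart 3 stood out by 178 reads on Y-linked genes, by a sex chromosome score of 2.45, which rests on the same reads, and by a low lymphatic endothelial score of -0.30. Heart 5 stood out by 123.1 CPM of Bmp10 and by a sarcomere score of -0.11. The latter is the extreme of a list whose whole range was 0.15. Heart 2 stood out by 100.8 CPM of Rpph1, the RNA of ribonuclease P, which is not polyadenylated and shares 73% of its exon bases with Ccnb1ip1.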

How the results depend on the processing

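The 548 variable genes became 344 when a mean CPM of at least 5 was required, 148 as DESeq2 dispersion outliers and 362 without hearts 2 and 5, the last chosen after seeing the data. Fewer genes were tested in the first case and fewer hearts in the last. With single hearts left out, counts ran from 375 to 520 for the trend, 8778 to 9740 for counting error and 11616 to 11784 for genes at 1 FPKM or more. The median CV then ran from 16.3% to 18.8%, the mitochondrial share from 9.30% to 11.1% and the top 100 share from 40.0% to 41.4%. As shares of the summed FPKM, the mitochondrial genes took 16.1% and the top 100 took 75.8%. The other settings, DESeq2 size factors, library totals, no filter and a minimum in every heart among them, kept these values within 1.5 times.

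The mitochondrial and immediate-early scores were no longer related at the threshold with any heart left out (r 0.944 to 0.986, adjusted exact permutation p 0.0667 to 0.2). With 5 hearts a single relation cannot go below 0.0667. Several other relations changed sign, none of them past the threshold, and the cause was not tested. Mitochondrial with nuclear oxidative phosphorylation scores (r = -0.05) turned to 0.0315 under DESeq2 size factors and 0.101 without hearts 2 and 5, and ran from -0.584 (without heart 6) to 0.349 (without heart 4) with single hearts left out. It was -0.760 under library totals and -0.744 on FPKM. Fatty acid oxidation with glucose use (-0.05) turned to 0.280 under library totals, 0.222 on FPKM and 0.588 without hearts 2 and 5, with -0.264 to 0.458 over single hearts left out. Atrial with stress scores (-0.06) turned to 0.00151 on FPKM and ran from -0.279 to 0.883, the latter without heart 6. The atrial and stress lists share their most abundant gene, at 2681 FPKM, so their scores are not independent. Fatty acid oxidation with fibroblast scores (-0.54) ran from -0.844 to 0.326, the latter without heart 6. Fatty acid oxidation with stress scores (-0.745) turned to 0.373 without hearts 2 and 6. No paired analysis was possible because only 1 group was used and no groups were compared.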

Other observations

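Nerve and glial genes, which mark the fibres that reach the ventricle, were described in no comparison above. Of 14 genes 11 were tested and 2 were variable. Dbh, the enzyme that makes noradrenaline, measured 8.99, 9.92, 9.23, 5.97, 4.46 and 0.869 CPM in hearts 1 to 6, with heart 6 lowest. Tubb3, a neuronal tubulin, measured 1.06, 1.98, 1.09, 1.24, 2.17 and 6.84 CPM, with heart 6 highest. The glial enzyme Cnp had a CV of 11.9%.

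Some genes of the 20 highest CVs belonged to no list. Ptprn2, a protein of secretory vesicles, measured 27.1, 20.8, 0.705, 2.78, 0.646 and 0.598 CPM, high in hearts 1 and 2. Nlrc3, a regulator of innate immune signals, measured 1.76, 2.55, 3.97, 2.42, 3.76 and 25.5 CPM, with heart 6 highest. In the integrated stress response list 3 of 22 genes were variable: Gdf15, Atf5 and Nupr1. Atf5, a stress transcription factor, measured 375, 271, 244, 121, 152 and 219.8 CPM, highest in heart 1, and Nupr1, a small stress-induced nuclear protein, 7.14, 7.18, 4.55, 5.44, 12.1 and 14.9 CPM, highest in heart 6. Calls in this list numbered 1 without heart 3, heart 4 or heart 5, and likewise without hearts 1 and 3 or hearts 2 and 5. Red blood cell genes could be read from 2 of 10 members only, of which Alas2, the erythroid enzyme of haem synthesis, measured 25.2, 30.4, 36.1, 35.0, 47.7 and 58.2 CPM. Hbb-b1 and Hbb-b2 were listed at 0 counts in all 6 hearts.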
